A study of Drosophila melanogaster with 4 samples.

Results

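The nub and pdm2 locus is a stretch of 2L that carries a pair of neighbouring POU genes, and it was described here through every Psc cluster that lies in it. A cluster is a region that the authors called as enriched for Psc. The members were all clusters of the 3 deposited lists that overlap 2L:12570000-12700000 (FlyBase release 5), a window of 130 kb. They numbered 48 of 13747 clusters: 15 of 2628 in the list of Psc ChIP replicate 1, 16 of 2432 in that of replicate 2 and 17 of 8687 in the combined list of the replicate set. The members were chosen by position, and the window itself was selected on the authors' scores in these lists, since it holds a region near the top of both replicate lists. For that reason its cluster numbers, coverage, scores and ranks are descriptions and carry no test.

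The samples came from the wild-type strain Oregon-R of Drosophila melanogaster. Embryos labelled as 14 to 16 h old gave chromatin that was cross-linked with formaldehyde, immunoprecipitated with an antibody to Psc and sequenced. There were 2 Psc ChIP samples and 2 Input samples (chromatin without immunoprecipitation), and each Input served as the background for the ChIP list of its own number. The strain, genotype and stage label were the same in all 4 samples, and the protocol in the labels describes the collection only as embryos up to 16 h of age. Nothing in the labels says that the replicates came from separate collections, so the spread between them may be technical. Whole embryos hold many cell types. A cluster therefore averages over all of them, and the state of nub and pdm2 in these cells was not measured here. More cells with Psc cannot be told apart from more Psc per cell. No list or value of an Input was used here, and read numbers are unknown.

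Psc is a RING finger subunit of Polycomb repressive complex 1, which is recruited to Polycomb response elements in flies and keeps developmental regulators silent in the cells where they are not needed. nub (nubbin, also called pdm-1) and pdm2 encode closely related transcription factors with a POU domain and a homeodomain. In the embryonic nervous system of the fly the Pdm proteins form a step of the temporal series of transcription factors that neuroblasts pass through, between Krüppel and Castor, and nub is also needed for the growth of the wing. In the RefSeq gene table of release 6, used here for names and order only, nub (CG34395) overlaps Ref2, a gene for an RNA export factor of the REF family. The next gene along the arm is pdm2 (CG12287), which contains the peptidase-like gene Nepl7, and CCT4, a gene for a chaperonin subunit, lies beyond it. On the other side of nub lie the non-coding RNA genes lncRNA:CR44595 and lncRNA:CR44596. The lists are of release 5, so no cluster was assigned to nub, pdm2 or a neighbour, and the window's identity as their locus is taken from its definition.

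Psc clusters covered a share of the locus over 7 times that of the arm as a whole. They took up 34.7% of the window in replicate 1 and 33.0% in replicate 2 (33.8% ± 1.1, mean and SD, n = 2), against 4.79% and 4.25% of 2L (4.52% ± 0.38, SD, n = 2). The ratio of locus to arm was 7.23 in replicate 1 and 7.77 in replicate 2. In the combined list the clusters covered 56.5% of the window and 12.4% of 2L, a ratio of 4.57. The difference between locus and arm was larger than the spread between the replicates in either, but the window was chosen for its signal and no test was made.

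**Figure D1:**
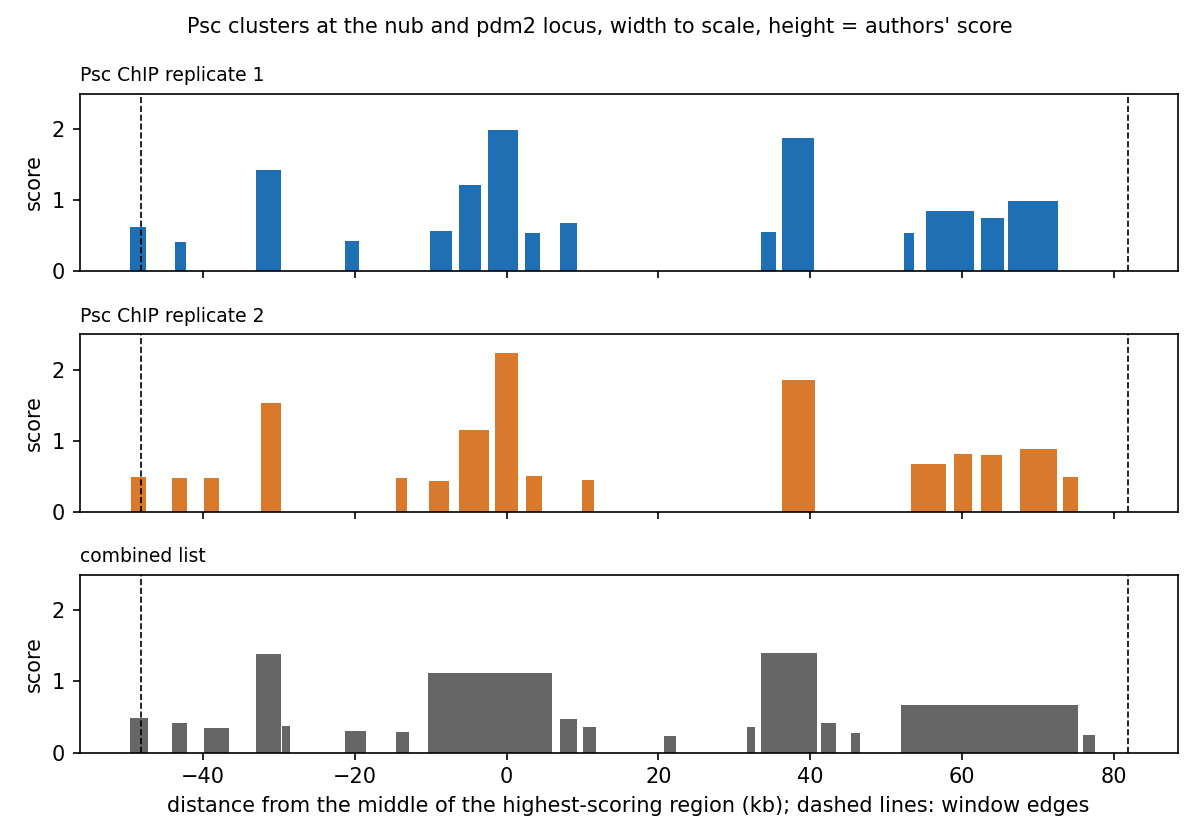
Psc clusters of the nub and pdm2 locus in the lists of Psc ChIP replicate 1, replicate 2 and the combined list. Each bar is 1 cluster, drawn to scale in width, with its height giving the authors' score; the x axis is the distance in kb from the middle of the highest-scoring region, and the dashed lines are the edges of the window. The 4 regions that score above 1 stand at the same places in both replicates, with a stretch of over 20 kb between them that holds no replicate cluster.

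The strongest Psc region of the locus had the highest score of the whole arm 2L in both replicates. Each cluster carries a score that the authors gave it for enrichment over the Input, and the lists name no unit for it, so scores are compared in size and rank and are not turned into folds. The strongest region, 2L:12615744-12619749 in replicate 1 and 2L:12616663-12619738 in replicate 2, scored 1.99 in replicate 1 and 2.24 in replicate 2. It ranked 17 of 2628 clusters in replicate 1 and 13 of 2432 in replicate 2, and stood first among the 434 and 420 clusters of 2L. Its right edge was nearly fixed, 11 bp apart between the replicates, while its left edge lay 919 bp further right in replicate 2. In the combined list the region lay in a wider cluster of 16270 bp that did not stand first. That cluster scored 1.11 and ranked 226 of 8687 in the list and 32 of 1404 on 2L.

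A second region of nearly that strength lay 38.4 kb to the right. It spanned 2L:12654436-12658669 in replicate 1 and 2L:12654492-12658796 in replicate 2, with scores of 1.88 and 1.85. It ranked 30 and 41 in the whole lists and 2 and 6 on 2L. Its edges were 56 bp and 127 bp apart, and the bases shared by both replicates made up 95.8% of the bases in either, the highest share among the 11 region pairs of the locus.

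The third region, 31.1 kb to the left of the strongest, spanned 2L:12585165-12588456 in replicate 1 and 2L:12585795-12588422 in replicate 2 and scored 1.42 and 1.53. The fourth, directly to the left of the strongest, spanned 2L:12611885-12614782 in replicate 1 and 2L:12611933-12615900 in replicate 2 and scored 1.21 and 1.16. The replicate 2 cluster of this region ran on for 1118 bp past the end of the replicate 1 cluster and so also met the strongest replicate 1 cluster. The fifth region scored lower, at 0.99 in replicate 1 and 0.89 in replicate 2, and was among the wider ones, with 6554 bp (2L:12684231-12690784) and 4897 bp (2L:12685827-12690723).

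Scores above 1 were reached by 4 of the 15 locus clusters in replicate 1, where 11.0% of all clusters did so, and by 4 of 16 in replicate 2, where 12.0% did. In the combined list 3 of 17 locus clusters scored above 1, against 3.32% of the list. The median score of the locus clusters was 0.68 in replicate 1 and 0.59 in replicate 2, against 0.57 and 0.52 in the rest of each list. In the combined list the medians were equal at the precision given, 0.37 in the locus and 0.37 in the rest.

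The locus clusters were also wider than most. Their median widths were 2898 bp (replicate 1), 2514.5 bp (replicate 2) and 2062 bp (combined list), against 1768 bp, 1814.5 bp and 1447.5 bp in the rest of each list. More than 3000 bp were spanned by 6 of the 15 clusters in replicate 1 (16.6% of the list), by 5 of the 16 in replicate 2 (17.6% of the list) and by 5 of the 17 combined clusters (9.20% of the list). No single replicate cluster of the locus was extreme in width: the widest had 6554 bp in replicate 1 and 4897 bp in replicate 2, while the lists reached 93802 bp and 35563 bp.

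The clusters fell into 3 blocks once the replicate clusters of both lists were joined across gaps of up to 10 kb. The left block spanned 61.1 kb (2L:12568562-12629686), the middle block 7.13 kb (2L:12651670-12658796) and the right block 22.9 kb (2L:12670525-12693435). The left block held 9 clusters in replicate 1 and 10 in replicate 2, among them 3 of the 4 regions that scored above 1, and was covered to 37.8% ± 0.53 (SD, n = 2). The middle block held the second-strongest region and, in replicate 1, 1 further cluster, and its coverage differed between the replicates, at 88.0% in replicate 1 and 60.4% in replicate 2. The right block had no cluster above 1, its scores running from 0.55 to 0.99 (replicate 1) and from 0.49 to 0.89 (replicate 2), yet 74.2% ± 2.3 of it was covered (SD, n = 2). Its coverage exceeded that of the left block in both replicates. The block edges were set from these same clusters by the limit of 10 kb, so the coverage of a block depends on that rule. In replicate 2 alone a gap of 15.2 kb divides the left block. The difference between the blocks was not tested. The left block thus combined high-scoring regions, of which the strongest and the fourth adjoined, with open stretches. Around these adjoining regions, in 2L:12607885-12624154, clusters covered 73.2% (replicate 1) and 72.5% (replicate 2), near the coverage of the right block. Taken over its whole length, the right block was a denser run of clusters that scored below the 4 strongest regions of the locus. Its highest cluster stood above 88.6% of the replicate 1 list and 85.4% of the replicate 2 list. Its lowest stood above 42.6% and 37.9%.

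Between the left and the middle block lay 22.0 kb, and between the middle and the right block 11.7 kb, without a cluster in either replicate list. In the combined list each of these gaps held 2 clusters that lay wholly inside it, with scores of 0.23 and 0.35 in the first and 0.28 and 0.42 in the second. Within the locus the median gap between neighbouring clusters was 2.08 kb by replicate 1, 2.39 kb by replicate 2 and 2.35 kb by the combined list, against 11.9 kb, 12.6 kb and 5.34 kb over the 5 major arms. Joined across gaps of up to 10 kb, the combined clusters of the locus and the nearest one outside its left edge formed 1 domain (2L:12566197-12695661). This domain of 129 kb with 18 clusters ranked 21 in length and 43 in number of clusters among 3075 domains. With the same gap the locus clusters formed 3 domains in replicate 1 and 4 in replicate 2.

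Both replicates gave most of the locus clusters. Of the 15 replicate 1 clusters, 12 overlapped a replicate 2 cluster by at least 1 bp (80.0%, exact Clopper-Pearson 95% interval 51.9 to 95.7), against 51.4% of all replicate 1 clusters. Of the 16 replicate 2 clusters, 12 overlapped a replicate 1 cluster (75.0%, 47.6 to 92.7), against 58.7% of all. When the overlap had to reach 50% of both clusters, the locus counts fell to 10 of 15 (66.7%) and 10 of 16 (62.5%). Shares of the whole lists under that rule are not given here. The intervals cover counting error only. Neighbouring clusters of 1 locus are not independent and the window was selected on these lists, so the intervals are no test against the whole lists. By bases, 32575 bp of the window lay in both replicate lists and 55419 bp in either, a share of 58.8%, against 42.6% over 2L and 43.3% over the 5 major arms. Clusters covered more of the locus than of the arm and were wider at the median than in the rest of each list. None of these overlap shares was adjusted for that, so they do not measure agreement between the replicates apart from it.

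**Figure D2:**
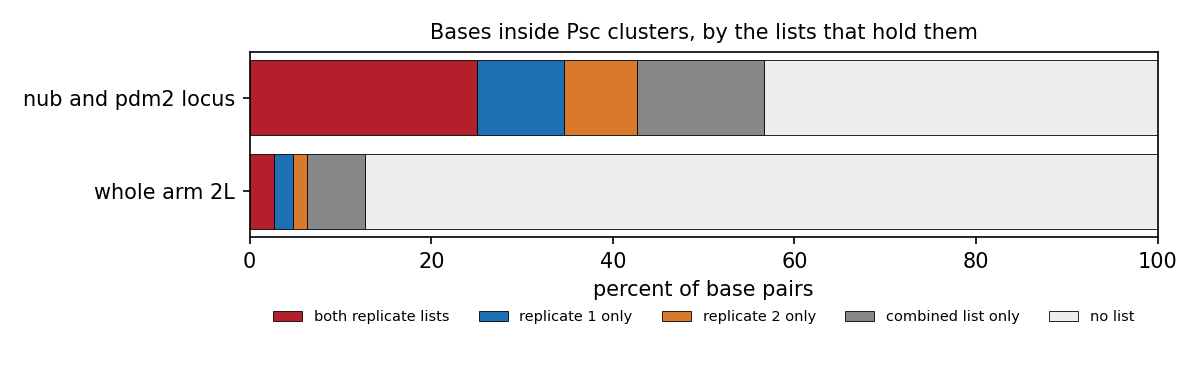
Share of base pairs, in percent, that lie in clusters of both replicate lists, of replicate 1 only, of replicate 2 only, of the combined list only, and of no list, for the nub and pdm2 locus (upper bar) and the whole arm 2L (lower bar). Bases in both replicate lists make up 25.1% of the locus and 2.70% of the arm, and bases in no list make up 43.3% and 87.3%.

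The 11 regions in which a cluster of each replicate was the other's partner of longest overlap ran from 0.41 to 1.99 in score in replicate 1 and from 0.43 to 2.24 in replicate 2. Replicate 2 scored higher in 4 of them and replicate 1 in 7. The median difference, replicate 2 minus replicate 1, was -0.04 in the locus and -0.02 over the 1283 other region pairs, and its SD was 0.13 in the locus and 0.17 elsewhere. The order of the regions by score was nearly the same in both replicates. Across the 11 locus pairs the rank correlation (Spearman) was 0.95 and the linear one (Pearson) 0.99. Across the 1283 other pairs they were 0.80 and 0.90. These correlations are across regions of the same 2 samples and describe these regions only. Those of the locus include the region on which the window was selected. The strongest locus region also had the largest difference, 0.25 higher in replicate 2, and the largest one the other way was 0.18, in the pair at the left of the right block.

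**Figure D3:**
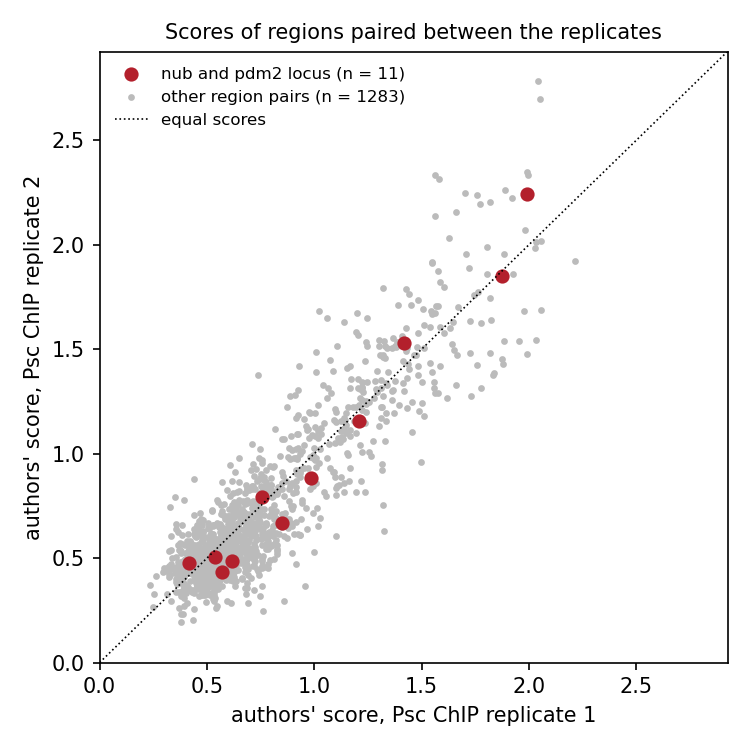
Authors' score of each region found in both replicates, in Psc ChIP replicate 1 (x axis) and replicate 2 (y axis), for the 11 pairs of the nub and pdm2 locus (red) and the 1283 other pairs (grey); the dotted line marks equal scores. The locus pairs run along the line from 0.41 to 1.99 in replicate 1, and the highest of them lies above it.

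Cluster edges were compared between the replicates pair by pair. The median shift between the replicates was 202 bp at the left edge and 186 bp at the right edge of the 11 locus pairs, against 212 bp and 228 bp in the other pairs. Of the 22 edges 12 lay within 200 bp of each other (54.5%, against 47.8% of the 2566 other edges). The widest shifts were in the right block, and the left block had shifts of up to 1118 bp. In the right block the replicate 1 cluster 2L:12673425-12679768 met 2 replicate 2 clusters, 2L:12671410-12676061 with a score of 0.67 and 2L:12677161-12679561 with 0.82, and its edges lay 2015 bp and 3707 bp from those of its longest partner. The replicate 1 cluster 2L:12670525-12671904 (score 0.55) met the first of these as well.

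Clusters found in 1 replicate list numbered 7, with scores of 0.43 to 0.68. In replicate 1 they were 2L:12596883-12598793 with a score of 0.43, 2L:12625267-12627445 with 0.68 and 2L:12651670-12653706 with 0.55. These scores were higher than 9.74%, 71.0% and 44.1% of the replicate 1 list. In replicate 2 they were 2L:12578354-12580317 and 2L:12603601-12605031, both with 0.48, 2L:12628160-12629686 with 0.44 and 2L:12691443-12693435 with 0.49. The highest of these 4 stood above 37.9% of the replicate 2 list. They lay close to clusters of the other replicate, between 658 bp and 4807 bp away. The replicate 1 cluster 2L:12625267-12627445 and the replicate 2 cluster 2L:12628160-12629686 were neighbours, 714 bp apart, so the replicates differed there in which of the adjoining stretches passed the authors' threshold. The lists hold only regions that passed it, so the signal of the other replicate at these places is unknown.

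All 15 replicate 1 clusters and all 16 replicate 2 clusters of the locus overlapped a combined cluster, as did 96.3% and 97.4% of the whole lists. Of the 17 combined locus clusters, 3 took in more than 1 cluster of a replicate. The same count is not given for the whole list, so it is not known whether such joining is more common at the locus. The combined cluster 2L:12607885-12624154 (16270 bp, score 1.11) took in the strongest region. Each replicate had 4 clusters in it, which covered 73.2% in replicate 1 and 72.5% in replicate 2. The combined cluster 2L:12670112-12693493 (23382 bp, score 0.67) spanned the right block, with 4 clusters of replicate 1 and 5 of replicate 2 inside. It was the widest of the locus and ranked 19 of 8687 by width, while the cluster around the strongest region ranked 47. The highest combined score, 1.40, belonged to 2L:12651708-12659097, the middle block, which ranked 10 among the 1404 combined clusters of 2L.

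Of the 17 combined clusters, 6 overlapped clusters of both replicates (35.3%, against 13.5% of the list), 2 met replicate 1 only (13.0% of the list), 3 met replicate 2 only (10.1% of the list) and 6 met neither (35.3%, against 63.5%). Those in both measured 5317 bp and scored 0.89 at the median, and held 54715 bp. Those in neither measured 1326 bp and scored 0.32 at the median, and held 8323 bp. The same order held over the whole combined list, with medians of 3167 bp and 0.51 for clusters in both and 1232 bp and 0.37 for those in neither. Most of the bases in combined locus clusters thus lay in clusters that met both replicate lists. Counted base by base, 32575 bp of the 73409 bp of the window in combined clusters lay in both replicate lists. The combined list is made from the same samples and is no independent support of either replicate list.

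Set beside the other windows of the same length on the 5 major arms, the locus ranked 15 of 912 by mean replicate coverage and 2 of the 176 windows on 2L. The median of the other 911 windows was 2.07% and the highest 81.3%. By replicate 1 alone it ranked 20 over the arms and 3 on 2L, and by replicate 2 alone 16 and 2. In the combined list it ranked 20 over the arms and 4 on 2L. The locus window was selected on its signal, whereas the other windows followed a fixed grid that can cut a domain into pieces. The ranks can therefore favour the locus and are descriptions only.

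**Figure D4:**
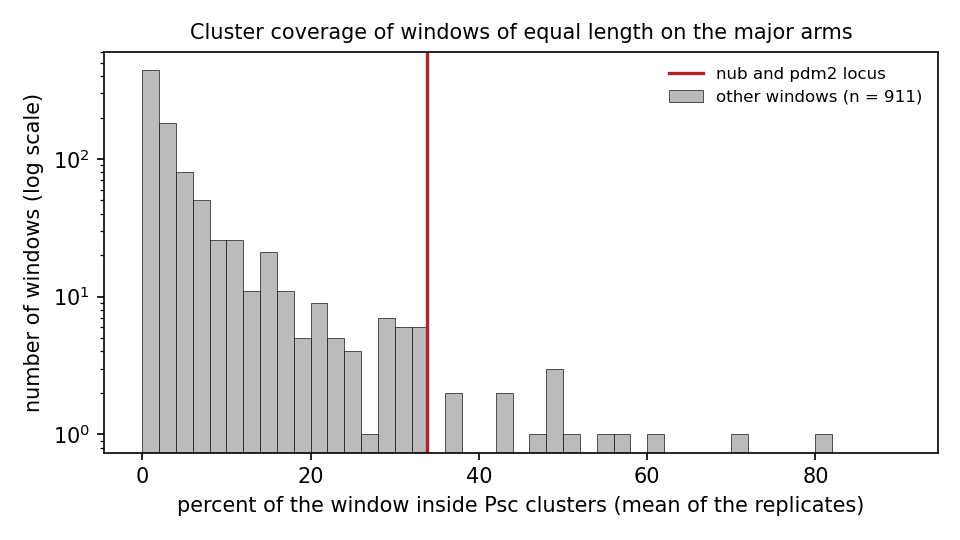
Number of windows (log scale) by the percent of their base pairs inside Psc clusters, as the mean of the 2 replicate lists, for 911 windows of the locus' length on the 5 major arms (grey). The nub and pdm2 locus, at 33.8% (red line), stands to the right of nearly all of them, and the highest window reaches 81.3%. The locus window was selected on its signal, and the other windows followed a fixed grid.

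On the left the first member of each list straddled the edge, scoring 0.62 (replicate 1), 0.49 (replicate 2) and 0.48 (combined list). The nearest cluster outside lay 22.4 kb, 15.3 kb and 1.80 kb beyond the edge in these lists, with scores of 0.65, 0.30 and 0.39. On the right the last members scored 0.99, 0.49 and 0.25, and the nearest clusters outside scored 0.39, 0.61 and 0.35 at 21.6 kb, 119 kb and 21.3 kb from the edge.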

How the data were processed

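Psc ChIP-seq lists of 2 ChIP samples and of the replicate set were analysed; the 2 Input samples have no values here. Reads were processed with Bowtie 0.12.7, per the submitters' processing notes, and coordinates are on FlyBase release 5, per the file headers. The score of each cluster is the authors' enrichment score as deposited. The cluster caller, its thresholds, the scaling of libraries and the way replicates were combined were not given in the sources used here, so the depth behind a score is unknown. Among the 60 highest combined scores, 1507 of 1770 differences were base 2 logs of fractions with a denominator of at most 40 (tolerance 1e-09). The natural base gave 94 such differences and base 10 gave 141. In the replicate lists the base 2 counts were 40 and 22, so the scale of those scores is not settled.

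Clusters were compared by position, with at least 1 bp of overlap, with numpy 2.4.6, scipy 1.17.1, pandas 2.3.3 and matplotlib 3.10.9 under Python 3.11.15. The overlap, pairing, joining and coverage functions were tested on simulated data, and the overlap also against bedtools 2.31.1. Ranks of windows used consecutive windows of the locus' length on 2L, 2R, 3L, 3R and X, without those that overlap the locus. Regions given in full were, by rule, the 5 pairs with the highest scores and every cluster in 1 replicate list; the remaining ones were picked once their values were known. The locus, the gene list and the comparisons were chosen with earlier results of these data known. No cluster was assigned to a gene, because the gene table is of release 6. Alternatives were a required overlap of 50%, merging within 1000 bp, clusters at or above the median score of their list, other window edges, domain gaps of 5 kb and 25 kb, a shifted grid of windows and each replicate alone.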

Additional observations from a re-analysis of the deposited data

How the results depend on the processing

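Of 26 alternatives to 8 results, 14 stayed within the spread allowed for the result in question and 12 did not. That spread differed between results, so the split does not follow the size of a change. Under the required overlap of 50%, falls from 80.0% to 66.7% and from 75.0% to 62.5% in the shared clusters counted as within it. A change from 58.8% to 58.0% in shared bases did not. Keeping only clusters at or above the median score of their list lets fewer clusters enter by construction. Of the replicate 2 locus clusters kept, 100.0% (8 of 8) met a replicate 1 cluster. The replicate 1 clusters showed no such rise, at 77.8% (7 of 9) against 80.0% before. Among the combined locus clusters kept, 75.0% (6 of 8) met both replicate lists. Mean coverage moved to 23.8% and the bases in both replicates over either to 70.1%. Shares of the whole lists under this setting are not given here, so these values do not compare the locus with the rest. Widening the window by 20 kb on each side gave 27.2% mean coverage and 58.0% shared bases, and the span from the first to the last locus cluster gave 35.7% coverage. The locus split into 5 domains of combined clusters at a gap of 5 kb. At the gap of 10 kb it formed 3 domains in the replicate 1 list and 4 in the replicate 2 list. Its rank among windows was 18 when coverage was weighted by score (2 on 2L), and 17 on the shifted grid (3 of 175 on 2L). Leaving out each replicate in turn gave a coverage of 33.0% to 34.7% and a rank of 16 to 20. The cause was not tested for domains and rank. Unknown read numbers limit all scores, and a region missing from a list has no value. No paired analysis was possible because each list already sets a ChIP sample against its own Input, so the files used hold no separate Input values to pair.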

Other observations

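In the combined list, score and width went together at the locus and hardly at all over the whole list: across the 17 locus clusters the Spearman rho was 0.66, against 0.04 across all 8687 combined clusters. In the replicate lists the values were 0.84 across 15 and 0.67 across 16 locus clusters, against 0.56 and 0.62 across the whole lists. Over regions paired between the replicates the order was the other way: 0.69 in replicate 1 and 0.49 in replicate 2 across the 11 locus pairs, against 0.77 and 0.79 across the 1283 other pairs. The points share the libraries and the calling of clusters, neighbouring clusters are not independent, and the difference was not tested.

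Joined across gaps of up to 25 kb, the locus ran on to the left in all 3 lists, into 1 domain of 175 kb in replicate 1, 174 kb in replicate 2 and 180 kb in the combined list. These domains held 19, 19 and 26 clusters and began at positions 12516015, 12519855 and 12516054 of 2L, and each ended with the last cluster of the locus. By length they ranked 9 of 984 in replicate 1, 6 of 946 in replicate 2 and 89 of 1276 in the combined list. By number of clusters the ranks were 9, 10 and 73. The limit of 25 kb was above the median gap over the 5 major arms in each list (11.9 kb, 12.6 kb and 5.34 kb).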
